A study of Mus musculus with 8 samples.

Results

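Transcripts of CD8 T cells and natural killer (NK) cells were read in RNA libraries that had been sorted as B cells. The 10 genes examined were Cd8a, Cd8b1, Trac, Trbc2, Cd3d, Cd3e, Cd3g, Nkg7, Klrd1 and Ccl5, 10 of 24259 gene symbols in the deposited count table. They were picked by name, with their levels and their co-variation in these same libraries known, so those levels are given as a description, and no test over the 10 genes as a set is given. The libraries held NP+IgDlowB220+ pre-GC B cells, which bind the hapten NP, carry the B cell form of CD45 and have lost most surface IgD, from lymph nodes of C57BL/6 mice 3 days after immunization with NP-OVA in alum with LPS. All recipients were CD45.1 mice that lacked SAP (Sap-/-), an adaptor without which their own T cells cannot sustain germinal centers, and all had received OT-II T cells, which are CD4 T cells with a transgenic receptor for an ovalbumin peptide. In the HET group (4 libraries) these OT-II T cells were CD4-Cre x Bcl6fl/+, with 1 floxed Bcl6 allele deleted by a Cre that is active in T cells. In the WT group (4 libraries) the OT-II T cells carried CD4-Cre only. The sequenced cells themselves were not targeted, and each library was made from about 200 cells sorted from 1 pool of recipients per group, so p-values measure the spread of sorting and library preparation, and genotype and pool cannot be told apart.

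A T cell recognises antigen through a receptor built of an alpha and a beta chain, whose constant parts are encoded by Trac and by Trbc1 or Trbc2. The chains reach the surface only together with the CD3 chains (Cd3d, Cd3e and Cd3g), which carry the signal into the cell. Cytotoxic T cells add the coreceptor CD8, a pair of CD8 alpha (Cd8a) and CD8 beta (Cd8b1) that binds MHC class I, whereas helper T cells carry CD4. NK cells have no rearranged antigen receptor but share with CD8 T cells the granule protein NKG7, the receptor subunit CD94 (Klrd1) and the chemokine CCL5. B220 is a marker of B cells that plasmacytoid dendritic cells and some NK cells also display.

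Total counts ranged from 6652386 to 12559189 per library, and 3 counts corresponded to between 0.241 and 0.455 CPM (counts per 1000000 after TMM scaling). The B cell markers Cd79a and Cd79b lay between 3209 and 3999 CPM and between 2290 and 3121 CPM. The 10 genes together took between 0.0122% of counts (WT replicate 4) and 0.0620% (HET replicate 2), which is small beside the B cell signal but far above the floor. All 10 exceeded that floor in all 8 libraries, and all 10 passed the filter on low counts. In bulk RNA, fewer cells of a type and less RNA per cell cannot be told apart.

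The CD8 coreceptor was found in each of the 8 libraries, and Cd4 was at or near 0. Cd8a (chromosome 6, 71373427 to 71379173 on GRCm38) stood at 36.7, 57.1, 29.7 and 18.8 CPM in HET replicates 1 to 4 and at 33.0, 34.2, 7.19 and 23.0 CPM in WT replicates 1 to 4. Cd8b1, which lies 35933 bases before Cd8a on the same strand (71322788 to 71337494), stood at 61.1, 123, 53.3 and 61.9 CPM in HET and at 62.7, 67.4, 19.1 and 12.2 CPM in WT. HET replicate 2 was highest for both genes, WT replicate 3 was lowest for Cd8a and WT replicate 4 for Cd8b1, and the groups overlapped for both. Cd4 was counted 0 times in 5 libraries, 3 times in HET replicate 1, 5 times in HET replicate 4 and 7 times in WT replicate 4, against 57 to 456 counts of Cd8a and 117 to 950 of Cd8b1. Per length, in the authors' TPM, Cd8a was 59.1 times the level of Cd4 in HET replicate 4 and 74.9 times in WT replicate 4, the libraries with more than 3 Cd4 counts.

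**Figure D1:**
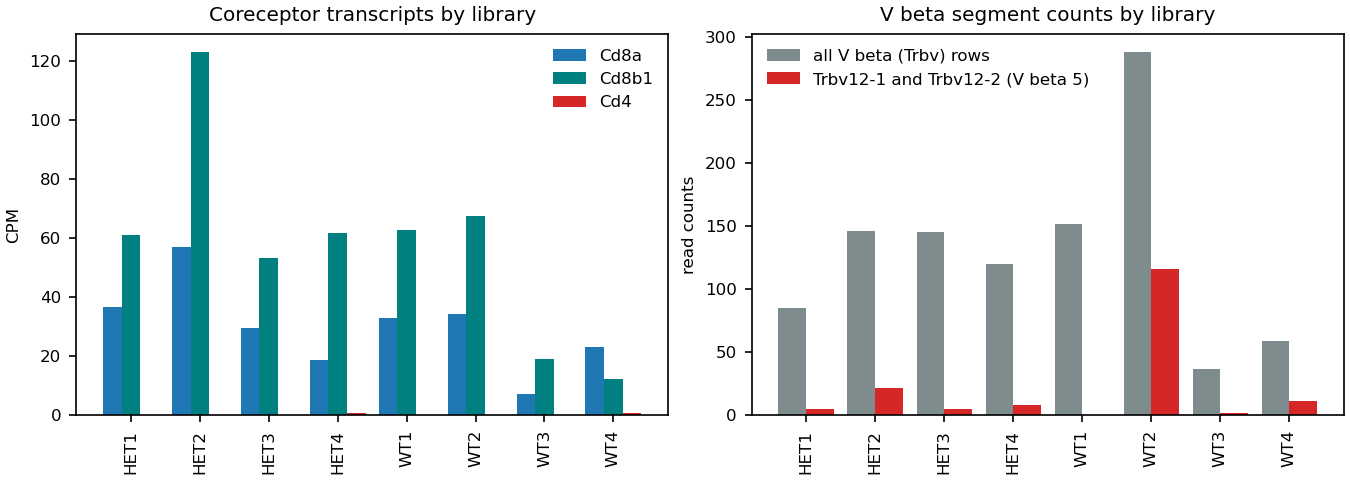
The left panel plots CPM of Cd8a, Cd8b1 and Cd4 in each library, and the right panel plots read counts of all V beta (Trbv) rows beside those of Trbv12-1 and Trbv12-2, which encode V beta 5. Cd4 is at most 0.758 CPM in any library, and V beta 5 counts exceed 22 only in WT replicate 2, with 116 of 288.

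The receptor's constant chains followed. Trac (chromosome 14, 54220521 to 54224206) stood at 26.9, 44.0, 30.7 and 15.9 CPM in HET replicates 1 to 4 and at 10.3, 49.7, 5.17 and 13.7 CPM in WT replicates 1 to 4. Trbc2 (chromosome 6, 41546730 to 41548352) stood at 39.0, 75.9, 63.2 and 29.4 CPM in HET and at 24.1, 64.6, 15.4 and 10.8 CPM in WT. WT replicate 2 was the highest of all libraries for Trac and second to HET replicate 2 for Trbc2, while the other WT libraries lay below all HET libraries for both. The companion gene Trbc1 ranged from 20.3 to 27.6 CPM in HET and from 10.3 to 34.7 CPM in WT, and Trbc2 made up 41.5% to 74.1% of the counts of both. This split is uncertain, because the 2 genes differ at only 21 of the first 510 transcript bases (95.9% identical) and not at all in the first 259, where a read cannot be assigned to either. The stretch from base 421 to base 510 of the GENCODE M21 transcripts holds 13 of the 21 differences, and 8 lie before it. It is shown with the differing bases in capitals because most of the differences lie there.
Trbc1: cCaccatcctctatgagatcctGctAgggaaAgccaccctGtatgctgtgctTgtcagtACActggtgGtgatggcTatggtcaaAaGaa
Trbc2: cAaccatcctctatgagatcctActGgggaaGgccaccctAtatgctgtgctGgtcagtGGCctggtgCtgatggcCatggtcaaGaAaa

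V segments, the variable parts of the receptor chains, were not used to choose the genes. The 8 libraries held 1032 counts over 18 V beta (Trbv) rows and 486 counts over 56 V alpha (Trav) rows, so shares within a library are coarse. The most abundant V beta gene took 28.2% to 54.1% of a library's V beta counts and was not the same from library to library, with 6 different genes over the 8 libraries. Trbv19 led in HET replicate 2 with 79 of 146 counts (54.1%, 95% Wilson interval 46.0% to 62.0%), Trbv16 in HET replicate 3 with 50 of 145, and Trbv15 in WT replicate 1 with 53 of 152. The OT-II receptor uses V alpha 2 (the Trav14 genes) and V beta 5 (Trbv12-1 and Trbv12-2). V beta 5 took 116 of 288 counts in WT replicate 2 (40.3%, interval 34.8% to 46.0%), all from Trbv12-2. There, however, Trav14 took 0 of 103 V alpha counts. A limit of 3 counts over the total allows a Trav14 share of up to 2.91%, and the Wilson interval reaches 3.60%. Trav14 has 7 rows, and how reads that align to more than 1 of them were counted is not given. A count of 0 thus need not mean that Trav14 was absent. In WT replicate 1, V beta 5 took 0 of 152 counts, where the same limit allows a share of up to 1.97% and the interval reaches 2.46%. In the remaining 6 libraries V beta 5 took 2 to 22 counts (3.45% to 18.6%). Over all libraries pooled the share of V beta 5 was 16.4% (0% to 40.3% by library), and 7.12% without WT replicate 2. Trav14 took 10.1% of the pooled V alpha counts (0% to 35.4% by library), and 6.18% without HET replicate 3, where 23 of the 49 counts lay. Intervals and limits treat reads as independent draws and leave out the spread between libraries. SMART-Seq2 reads carry no molecular identifiers, so copies of the same molecule may be counted apart and the intervals may be too narrow.

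The CD3 chains lie in 1 cluster on chromosome 9, within 40056 bases. Cd3g (44969572 to 44980431, minus strand) and Cd3d (44981786 to 44987339, plus strand) start 1355 bases apart and run in opposite directions, and Cd3e (44998740 to 45009627, minus strand) follows. Cd3d stood at 22.8, 44.9, 46.4 and 28.5 CPM in HET replicates 1 to 4 and at 29.6, 30.6, 2.65 and 12.2 CPM in WT replicates 1 to 4. Cd3g stood at 17.8, 43.7, 31.0 and 18.8 CPM in HET and at 26.7, 33.9, 16.0 and 4.59 CPM in WT. Cd3e stood at 8.12, 25.9, 15.7 and 22.6 CPM in HET and at 22.5, 15.5, 6.56 and 9.81 CPM in WT. WT replicates 3 and 4 were the lowest pair for Cd3d and lay below all HET libraries for Cd3d and Cd3g, whereas for Cd3e HET replicate 1 lay among them. The 3 chains thus did not keep 1 ratio between libraries.

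The promoters of the divergent pair Cd3g and Cd3d are shown beside those of Cd8a and Nkg7. They are as RefSeq gives them on GRCm38.p6, from 250 bases before to 50 bases after the start. The table held 5 of the 10 genes (Cd8a, Nkg7, Cd3g, Cd3d and Cd3e). Capitals mark AGGAAG (an ETS core), TGTGGT (a RUNX core) and CAGCTG (an E-box), searched on both strands.
Cd3g promoter, chr9:44980382-44980681, minus strand: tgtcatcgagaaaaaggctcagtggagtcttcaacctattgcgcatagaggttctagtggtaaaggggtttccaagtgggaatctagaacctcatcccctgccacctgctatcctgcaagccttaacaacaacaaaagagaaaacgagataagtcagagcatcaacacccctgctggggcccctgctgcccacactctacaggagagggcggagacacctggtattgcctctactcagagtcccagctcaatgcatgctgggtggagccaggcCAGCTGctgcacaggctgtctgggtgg
Cd3d promoter, chr9:44981536-44981835, plus strand: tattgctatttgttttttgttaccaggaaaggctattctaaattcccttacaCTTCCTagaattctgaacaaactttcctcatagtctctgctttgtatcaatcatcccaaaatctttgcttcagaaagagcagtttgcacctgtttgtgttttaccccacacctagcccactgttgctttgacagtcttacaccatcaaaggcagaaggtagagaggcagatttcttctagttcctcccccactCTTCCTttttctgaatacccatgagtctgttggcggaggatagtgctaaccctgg
Cd8a promoter, chr6:71373177-71373476, plus strand: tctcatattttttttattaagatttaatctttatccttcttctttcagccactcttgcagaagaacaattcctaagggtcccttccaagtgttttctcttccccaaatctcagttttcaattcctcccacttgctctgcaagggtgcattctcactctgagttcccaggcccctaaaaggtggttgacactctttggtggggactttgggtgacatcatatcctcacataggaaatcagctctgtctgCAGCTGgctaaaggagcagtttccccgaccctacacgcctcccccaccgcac
Nkg7 promoter, chr7:43436888-43437187, plus strand: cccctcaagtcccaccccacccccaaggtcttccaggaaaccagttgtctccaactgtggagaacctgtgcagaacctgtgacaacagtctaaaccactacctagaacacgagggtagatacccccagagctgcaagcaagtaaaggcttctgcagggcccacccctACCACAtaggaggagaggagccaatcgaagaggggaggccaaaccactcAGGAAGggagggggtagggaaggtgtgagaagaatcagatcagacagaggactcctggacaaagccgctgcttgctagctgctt
The ETS core was in 3 of the 5 promoters (Nkg7, Cd3d and Cd3e) and in 35.4% of all 32851 promoters, the E-box in 2 of 5 (Cd8a and Cd3g) and in 16.3% of all, and the RUNX core in 1 of 5 (Nkg7) and in 16.8% of all. These matches are a description of the letters and not of binding.

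Nkg7, Klrd1 and Ccl5 are made by NK cells as well as by CD8 T cells. Nkg7 (chromosome 7, 43437073 to 43438249) stood at 68.2, 96.6, 96.9 and 22.4 CPM in HET replicates 1 to 4 and at 35.9, 48.9, 36.0 and 13.0 CPM in WT replicates 1 to 4. Klrd1 (chromosome 6, 129591782 to 129598775) stood at 42.7, 33.3, 25.8 and 14.0 CPM in HET and at 14.4, 15.1, 30.0 and 4.59 CPM in WT. For Nkg7, HET replicates 1 to 3 lay above all WT libraries and HET replicate 4 within the WT range. For Klrd1, HET replicates 1 and 2 lay above all WT libraries, and WT replicate 3 was above HET replicates 3 and 4. Ccl5 (chromosome 11, 83525778 to 83530518, minus strand) stood at 100.3, 72.4, 15.1 and 13.0 CPM in HET and at 33.8, 0.813, 65.2 and 19.7 CPM in WT, the widest spread of the 10 genes. It was highest in HET replicate 1 and lowest in WT replicate 2, with 8 counts, although WT replicate 2 was the library with the most Trac.

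Levels of different genes were compared per length, in the authors' TPM. Nkg7 was the highest of the 10, at 155 ± 95.5 TPM (SD over 8 libraries), and exceeded Trbc2, at 74.8 ± 46.4 TPM, in 8 of 8 libraries. Trbc2 exceeded Cd3d (37.0 ± 20.6 TPM) in 8 of 8. Below these, neighbours changed places between libraries and did not differ beyond their spread: Cd3d exceeded Ccl5 (36.7 ± 31.5 TPM) in 4 of 8, Ccl5 exceeded Trac (23.6 ± 15.7 TPM) in 5, Trac exceeded Cd8a (17.5 ± 8.57 TPM) in 6, Cd8a exceeded Klrd1 (12.5 ± 6.78 TPM) in 6, and Klrd1 exceeded Cd8b1 (11.8 ± 6.95 TPM) in 4. Cd3g (10.4 ± 5.36 TPM) and Cd3e (8.36 ± 3.85 TPM) were lowest. Set against Cd79a, a signalling chain of the B cell receptor, the TPM of Nkg7 was 1.65% to 13.0%, that of Trac 0.203% to 1.99% and that of Cd8a 0.172% to 1.52%.

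T cell receptor, CD3 and CD8 genes varied together over the libraries, Ccl5 did not follow most of them, and Nkg7 followed both these genes and Klrd1. Among the 21 pairs of T cell receptor, CD3 and CD8 genes, Spearman's rho over the 8 libraries ranged from 0.333 to 0.905 (median 0.690). Trac with Trbc2, Trbc2 with Cd3g, and Cd3d with Cd3g reached 0.905 each. Pearson's r of log2(CPM + 1) for these pairs was 0.862, 0.869 and 0.575. Klrd1 was likewise close to Nkg7 (0.786) and Ccl5 (0.690), but Nkg7 with Ccl5 gave only 0.262. Between Nkg7, Klrd1 or Ccl5 and the 7 T cell genes the median was 0.286 over 21 pairs, of which 14 were above 0. Ccl5 was negative with Cd3d (-0.286), Trac (-0.262), Cd3e (-0.214), Cd3g (-0.190), Cd8b1 (-0.048) and Trbc2 (-0.048), but gave 0.357 with Cd8a. Klrd1 was negative with Cd3e (-0.190). Nkg7 gave 0.786 with Trbc2, 0.667 with Cd3d, 0.643 with Cd3g, 0.619 with Trac and 0.571 with Cd8a, but 0.333 with Cd8b1 and 0.119 with Cd3e. These values describe libraries that share a pool within each group, co-variation was known when the genes were picked, and no p-value is given.

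**Figure D2:**
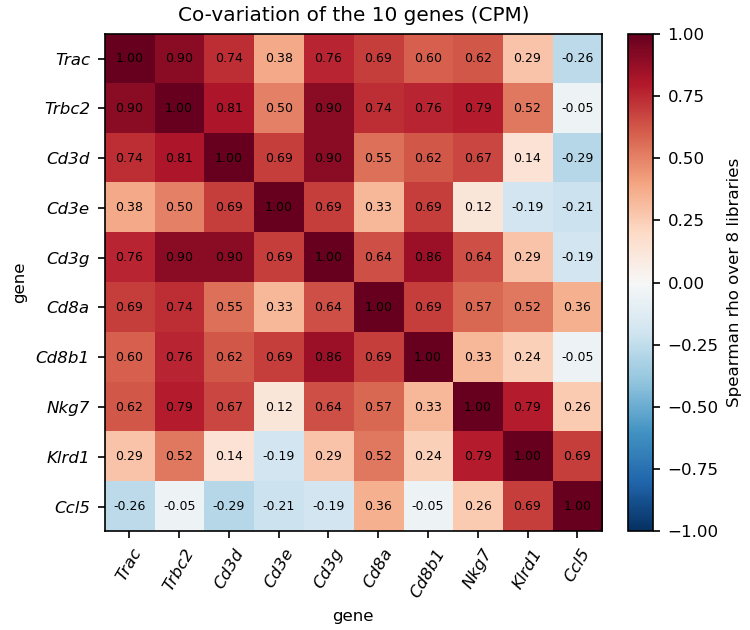
Spearman's rho between each pair of the 10 genes over the 8 libraries, from CPM, with the value in each cell. T cell receptor, CD3 and CD8 genes form a block of positive values (0.333 to 0.905), and Ccl5 is near or below 0 with most of them.

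HET replicate 2 was among the 3 highest libraries for all 10 genes and highest for 5 of them. At the other end, WT replicate 4 was among the 3 lowest for 9 of 10 and lowest for 5, and WT replicate 3 was among the 3 lowest for 7 and lowest for 4. HET replicate 4 was among the 3 highest for 1 gene only. The summed CPM of the 10 genes was 424, 617, 408 and 245 in HET replicates 1 to 4 and 293, 361, 203 and 124 in WT replicates 1 to 4, with means of 423 ± 152 (SD, n = 4) and 245 ± 104 (SD, n = 4). The groups overlapped, since HET replicate 4 lay below WT replicates 1 and 2.

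To ask whether these transcripts differed with the genotype of the helper T cells, HET was compared with WT by edgeR's quasi-likelihood test over all 12744 genes that passed the filter. None of the 10 genes passed an adjusted p of 0.05 (0 of 10, against 0.0235% of all genes tested), and 0 of 10 had an unadjusted p under 0.05 (7.22% of all). DESeq2 also called 0 of 10 (0.581% of the genes it tested). The log2 fold change was above 0, that is higher in HET, for 10 of 10 genes (49.9% of all), with a median of 0.81 against -0.0014 over all genes, and 0 of 10 had groups that did not overlap (4.61% of all). Because the levels were known when the genes were chosen and the genes vary together, this shared sign is a description of these libraries. Of the 10, Nkg7 differed most. Its HET mean was 71.0 ± 35.1 CPM (SD, n = 4), its WT mean was 33.5 ± 14.9 CPM (SD, n = 4), and edgeR fitted it 1.09 higher in HET on the log2 scale (SE 0.50, adjusted p = 0.706). Cd3d followed with 0.92 (SE 0.60), then Cd8b1 with 0.89 (SE 0.58), Klrd1 with 0.86 (SE 0.47) and Trbc2 with 0.85 (SE 0.56). Smaller differences were fitted for Ccl5 (0.76, SE 1.16), Trac (0.58, SE 0.62), Cd8a (0.55, SE 0.43), Cd3g (0.45, SE 0.50) and Cd3e (0.40, SE 0.42). Adjusted p in edgeR ranged from 0.706 to 0.931 over the 10 genes. Leaving out a single library moved the fitted difference by more than 1.5 times for 9 of 10 genes (all but Nkg7), with no change of sign. Without HET replicate 2 it was 0.23 for Cd8a, 0.55 for Cd8b1, 0.32 for Trac, 0.19 for Cd3e and 0.15 for Cd3g. Without WT replicate 2 it was 1.60 for Trac, 1.63 for Trbc2, 0.82 for Cd3g and 0.35 for Ccl5. Without WT replicate 3 it was 0.25 for Cd8a, 0.27 for Trac, 0.57 for Cd3d, 0.18 for Cd3e, 1.35 for Klrd1 and 1.48 for Ccl5. Without WT replicate 4 it was 0.59 for Cd8b1, 0.12 for Cd3g and 0.55 for Klrd1. Without HET replicate 1 it was 0.66 for Cd3e and 0.17 for Ccl5, and without WT replicate 1 it was 0.36 for Trac and 0.75 for Cd3e. None of these differences was larger than the spread between libraries by this test.

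**Figure D3:**
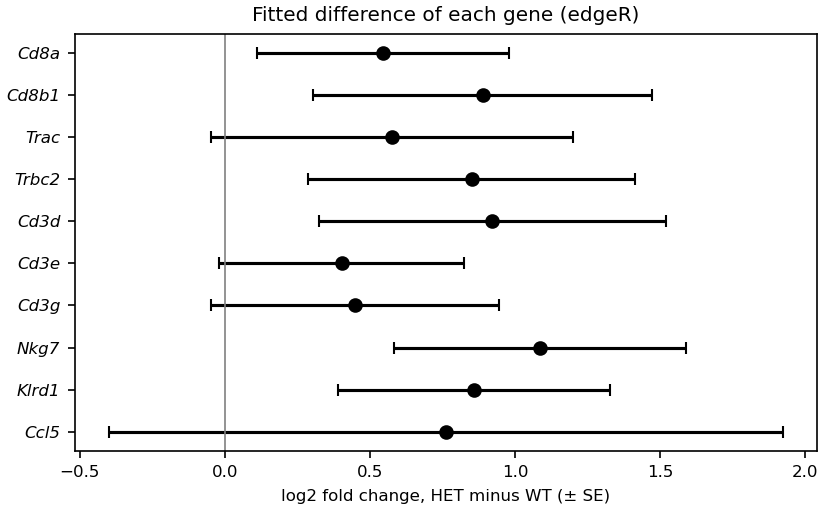
The fitted log2 fold change, HET minus WT, of each of the 10 genes is plotted with its SE (edgeR, 4 against 4 libraries). All 10 points lie above 0, from 0.40 for Cd3e to 1.09 for Nkg7, and the SE of Ccl5 is the widest at 1.16.

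Other genes of the T cell receptor pathway and T lineage were measured with a list of 20, of which 19 were tested. Of these, 16 were fitted above 0 (HET over WT) and 3 below, and their median was 0.48 on the log2 scale. None passed the adjusted threshold in edgeR or DESeq2, and 1 had an unadjusted p under 0.05 in edgeR (Themis, log2 fold change 1.64, against 3.34% of all genes called higher at that p). Of the signalling genes, Lck, the kinase that acts with the coreceptors, ranged from 92.4 to 172 CPM, and Cd247, the zeta chain of the receptor complex, from 6.37 to 28.4 CPM. The highest Lck level was 1.86 times the lowest, against 3.95 times (Cd3e) to 123 times (Ccl5) for the 10 genes. Which cells the Lck reads came from was not tested. Cd2 (168 to 246 CPM), the gene with the highest mean of the list, is also made by B cells and was fitted at -0.14. Lef1, a factor of T cells and their precursors, ranged from 24.3 to 61.5 CPM and was fitted at -0.02.

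Helper T cell genes were scarce. Of 10 such genes 9 were in the table and 4 passed the filter, of which 1 was higher and 3 lower in HET with 0 called by either tool and 0 at an unadjusted p under 0.05. Cd40lg, the ligand through which helper T cells signal to B cells, was counted in HET replicates 1 (1 count) and 3 (7 counts) and at 0 in the other 6 libraries. Sh2d1a, which encodes the SAP protein that the recipients lack, was present at 2.57 to 5.09 CPM in HET and 3.03 to 6.27 CPM in WT. Reads counted per gene do not show whether the Sh2d1a reads came from transferred or from host cells. Zbtb7b, a factor of the CD4 lineage, had the highest mean of the list over the 8 libraries, 6.63 CPM (2.46 to 11.7 CPM), and Icos, a costimulatory receptor, was highest in HET replicate 2 with 14.9 CPM against 0 to 2.76 CPM elsewhere. The summed CPM of this list, 11.0 to 27.8, had a Spearman's rho of -0.119 with that of Cd8a and Cd8b1 over the 8 libraries.

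The summed CPM of the cytotoxic list and of the NK list varied with that of Nkg7, Klrd1 and Ccl5, and so did the sums of some other lists. Of 16 cytotoxic effector genes 10 were tested, and 9 of them were fitted higher in HET and 1 lower (median 0.53 on the log2 scale, with 49.9% of all genes above 0). None passed in edgeR, and 2 of 10, both higher in HET, had an unadjusted p under 0.05 (3.34% of all). Runx3, a factor of cytotoxic lineages and the gene with the highest mean of the list, was fitted at 0.20 (49.5 to 75.4 CPM). Its highest level was only 1.52 times its lowest, and which cells the Runx3 reads came from was not tested. Il2rb, an interleukin receptor chain, was fitted at 0.77 (4.94 to 53.2 CPM), while the receptor genes Klrk1 and Klrc1 were fitted at 0.22 and -0.05. Eomes, a factor of memory CD8 T cells and NK cells, was the closest with 14.9, 17.0, 5.69 and 4.09 CPM in HET replicates 1 to 4 and 1.52, 2.03, 3.53 and 2.19 CPM in WT replicates 1 to 4. Its groups did not overlap, nor did those of Themis, as for 4.61% of all genes tested. The log2 fold change of Eomes, 2.17 (SE 0.54), had an adjusted p of 0.290 in edgeR. In DESeq2, which called 0.581% of the genes it tested, the adjusted p was 0.0206. Eomes was named after its values were seen. Ctsw, a cathepsin of cytotoxic cells, was fitted 0.80 higher (SE 0.28, edgeR adjusted p = 0.571). The granzyme gene Gzma ranged from 10.3 to 33.5 CPM in HET and from 0 to 14.4 CPM in WT (edgeR adjusted p = 0.709), while Gzmb was counted in HET replicate 3 only and Ifng only once, in WT replicate 1. The summed CPM of the list had a Spearman's rho of 0.810 with that of Nkg7, Klrd1 and Ccl5. The sum of those 3 genes also gave 0.643 with the T lineage list and 0.643 with the dendritic cell list that holds Xcr1. It gave 0.452 with myeloid, 0.357 with plasmacytoid dendritic cell, 0.143 with B cell and -0.238 with helper genes. With gamma delta T cell genes it gave 0.619. Their sums were only 0 to 0.907 CPM, except for 5.24 CPM in HET replicate 3, so this value mostly ranks levels near the floor. Pearson's r was 0.739 with the cytotoxic list, 0.609 with T lineage, 0.584 with NK and 0.562 with the Xcr1 list.

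Ncr1, which encodes the NK cell receptor NKp46, stood at 22.6, 10.6, 2.85 and 0 CPM in HET replicates 1 to 4 and at 0.380, 12.5, 6.94 and 10.2 CPM in WT replicates 1 to 4. It was at or near 0 in HET replicate 4 and WT replicate 1, where all 10 genes were above the floor. Among these were Nkg7 (22.4 and 35.9 CPM) and Klrd1 (14.0 and 14.4 CPM). Of 12 NK genes 10 were tested, of which 9 were fitted higher in HET and 1 lower (median 0.31 on the log2 scale), with 0 called by either tool and 0 at an unadjusted p under 0.05. Tyrobp, an adaptor of NK and myeloid cells, was the most abundant at 16.6 to 181 CPM, followed by Fcer1g at 2.85 to 58.6 CPM and Txk at 3.78 to 19.3 CPM. The sum over the list ranged from 73.2 to 330 CPM in HET and from 34.8 to 244 CPM in WT. Its Spearman's rho was 0.762 with the sum of Nkg7, Klrd1 and Ccl5. With the sum of the T cell receptor and CD3 genes it was 0.0952. The list sum is weighted to Tyrobp and Fcer1g, and whether single NK genes such as Ncr1 varied with Nkg7, Klrd1 and Ccl5 was not tested. Of 7 gamma delta T cell genes only 3 had a row in the deposited counts. These 3 were low, with Trdc at 0 to 4.79 CPM, Trgc4 and Trgc1 at most 0.300 and 0.150 CPM, and 0 tested.

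**Figure D4:**
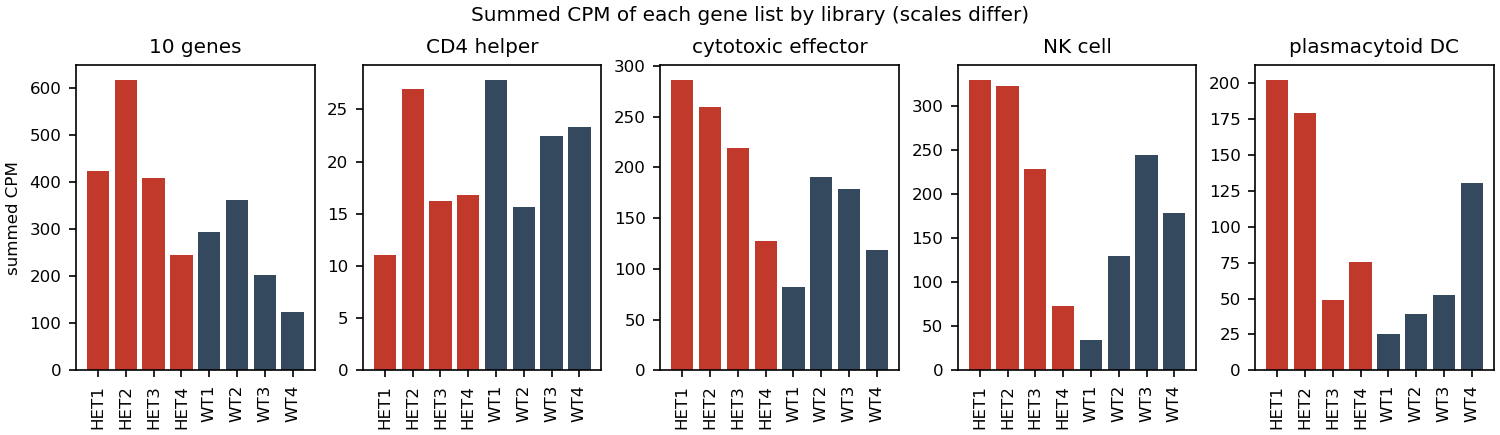
Summed CPM in each library of the 10 genes and of the lists for CD4 helper cells, cytotoxic effectors, NK cells and plasmacytoid dendritic cells, on separate scales. The CD4 helper list stays between 11.0 and 27.8 CPM, and the NK list is lowest in WT replicate 1 at 34.8 CPM.

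Markers of other cells also varied. Siglech, a receptor of plasmacytoid dendritic cells, stood at 102, 91.8, 13.0 and 23.7 CPM in HET replicates 1 to 4 and at 0, 0, 5.93 and 39.0 CPM in WT replicates 1 to 4 (edgeR adjusted p = 0.825). Of the 8 genes of that list 7 were tested, 5 higher and 2 lower in HET with 0 called and 0 at an unadjusted p under 0.05, and its summed CPM ranged from 49.0 to 202 in HET and from 25.1 to 130 in WT. The other abundant genes of that list, Pacsin1 (12.3 to 34.0 CPM) and Ccr9 (1.95 to 32.9 CPM), were fitted at -0.04 and -0.23. Xcr1, a receptor of cross-presenting dendritic cells that can carry CD8 alpha, was at 0.455 to 3.55 CPM, and its list summed to 20.6 to 52.9 CPM in HET and 9.69 to 28.1 CPM in WT. Of its 6 genes 4 were tested, 2 higher and 2 lower in HET with a median of 0.09 on the log2 scale. In edgeR 1 of the 4 (Flt3) had an unadjusted p under 0.05, higher in HET, and its groups did not overlap. Flt3 was fitted 1.36 higher (edgeR adjusted p = 0.280, DESeq2 adjusted p = 0.0161) and Itgax 0.62 higher, whereas Xcr1 was fitted at -0.66 and Zbtb46 at -0.45. Myeloid genes summed to 273 to 359 CPM in HET and 282 to 706 CPM in WT, where Lyz2 reached 399 CPM in WT replicate 2 against 0 to 28.5 CPM in the other libraries. Of 13 such genes 7 were tested, 2 higher and 5 lower in HET with 0 called by either tool. In edgeR 1 of the 7 had an unadjusted p under 0.05, lower in HET. The abundant Cst3 and Ms4a6c were fitted at 0.15 and -0.39. B cell markers went the other way from the 10 genes. Of 13, 12 were fitted lower in HET (49.9% of all genes were fitted higher), all but Ighm, which was fitted at 0.28. Their summed level was 20187 to 29185 CPM in HET and 22897 to 23986 CPM in WT. In edgeR 9 of the 12 had an unadjusted p under 0.05 (3.88% of all genes were called lower at that p) and 0 an adjusted p under 0.05. DESeq2 called Cd22 (log2 fold change -0.37 in edgeR, DESeq2 adjusted p = 0.0174), with 0.581% of the genes it tested called. The list was chosen with earlier results of these data known and each group is 1 pool, so these counts are a description. The part of these other transcripts in the differences above was not tested.

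The 5 genes outside the 10 whose log2(CPM + 1) followed each of 3 sums most closely over the 8 libraries were taken from 12734 genes. For the sum of Cd8a and Cd8b1 they were Rpl23a, Gm6477, Dynll2, Phykpl and Tlcd1 (Pearson's r from 0.955 to 0.982). For the sum of Trac, Trbc2, Cd3d, Cd3e and Cd3g they were 1700084E18Rik, Hnrnpab, Cand2, Dynll2 and Eloc (0.970 to 0.981), and for the sum of Nkg7, Klrd1 and Ccl5 they were Klk8, Pkp4, Nek9, Fxyd5 and Kif18b (0.932 to 0.964). These are the highest of many values over few libraries and are listed only as a description.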

How the data were processed

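The authors made SMART-Seq2 libraries, aligned reads to GRCm38 with HISAT2 2.2.1 and counted them per gene with HTSeq. Which annotation was counted, whether strand was used and how multiply aligned reads were treated is not given in the sources used here, so overlapping genes cannot be told apart by strand. The deposited count table holds raw read counts for 24259 symbols, and a second deposited table gives TPM for 24232 symbols. All columns of both tables were matched to the 8 libraries by name.

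Counts were fitted in R 4.3.3 with edgeR 4.0.16 (filterByExpr, TMM, robust quasi-likelihood F-test, group as the only factor, Benjamini-Hochberg over 12744 genes, threshold 0.05). SE was derived from the fitted change and its F statistic. Alternatives were DESeq2 1.42.0, RLE size factors, no filter, replicate number as a block, limma-trend (limma 3.58.1) on log2(TPM + 1) and log2(TPM + 0.1), and each library left out. Simulated counts with known changes were used to test the fit. Positions come from GENCODE M21.

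The 10 genes and the marker lists were chosen with earlier results of these data known. The genes named are the 10, the 3 of each list with the highest mean CPM, Cd4, Cd40lg, Sh2d1a, Ncr1, Siglech, Xcr1, and the 5 most alike per profile. A list of naive or memory T cell genes is not reported here. Trbc1, Themis, Cd247, Eomes, Gzma, Gzmb, Ifng, Klrk1, Klrc1, Cd22 and the leading V segments were named after their values were seen. Trbv5 had first been named for the OT-II receptor, by mistake. Its V beta 5 corresponds to Trbv12-1 and Trbv12-2, which replaced it after the data were seen, and Trbv5 had 3 of 1032 counts.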

Additional observations from a re-analysis of the deposited data

Results flagged for a closer look

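Over 22 sets of 4 values (the 10 genes and their sum, in each group), 1 library stood apart by more than is usual for 4 values, where chance gives about 1 in 20. HET replicate 2 had 123 CPM of Cd8b1. The remaining HET replicates had 53.3 to 61.9 CPM, and the distance to the nearest made up 0.878 of the range over the group.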

How the results depend on the processing

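Over 14 alternatives the 10 genes gave 140 fitted differences. All 140 kept the sign of the fit with all libraries and 0 passed an adjusted p of 0.05 (lowest 0.168, for Trbc2 without WT replicate 2, highest 0.987). The log2 fold changes ranged from 0.12 (Cd3g without WT replicate 4) to 1.63 (Trbc2 without WT replicate 2). That of Ccl5 fell from 0.76 to 0.17 without HET replicate 1, and that of Trac rose from 0.58 to 1.60 without WT replicate 2. The summed CPM stayed within 1 SD under each alternative tried. Genes past the threshold over the whole table numbered 3 in edgeR, 88 in DESeq2, 38 with no filter, 0 on log2(TPM + 1), 1 on log2(TPM + 0.1), and 1 to 6 when a library was left out (6 without WT replicate 1). The cause of these shifts was not tested. With the replicate number as a block the count was 0. Same-numbered libraries did not deviate together (correlations of -0.051 to 0.013 for the 4 pairs), so the numbers do not pair the libraries. Depth limits the V segment shares, since a library held 20 to 288 counts per chain.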
